A study of Mus musculus with 6 samples.

Results

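The 7 genes described here are Cxcl13 and other members of the CXC chemokine system: the ligands Cxcl12, Cxcl13, Cxcl14 and Cxcl16, the receptors Cxcr4 and Cxcr5, and the atypical receptor Ackr3. They were found by symbol in a table of 55401 genes, in which all 7 had 1 row each. Cxcl13 was chosen by its difference between the genotypes in these same libraries, so its values are a description and carry no test. The other 6 were listed by family. Of the 7 genes, 6 passed the filter on low counts and Cxcr5 did not.

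Expression was measured by bulk RNA-seq in frontonasal and maxillary prominences (FNP/MxP), the tissue of the future midface and upper jaw, dissected from E10.5 (embryonic day) mouse embryos. The 3 mutants (Tfap2Δ/NCKO) had a null allele over a floxed allele at Tfap2a, the same pair at Tfap2b, and the Wnt1:CRE transgene, which recombines in premigratory neural crest and its descendants. Cells outside the crest lineage in the mutants therefore kept the floxed alleles, with a reduced dose of both genes. The 3 controls were littermates without CRE that could have Tfap2a and Tfap2b alleles of any kind, so the transgene and the loss of both genes cannot be told apart. The study's methods name 3 control and 3 mutant littermates as the source of tissue, which reads as 1 embryo per library. The labels do not state this or which embryos shared a litter, so the spread between libraries may be partly technical. Each library is a mixture of cell types, and fewer cells of a type cannot be told apart from less RNA per cell.

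The libraries held 68119668 to 77555252 counts. Values are given as CPM, counts per 1000000 of each library's adjusted size (the trimmed mean of M-values, TMM), as mean ± SD with n = 3 libraries per genotype. Tfap2a stood at 32.9 ± 2.36 CPM in controls and 29.6 ± 1.67 in mutants (edgeR adjusted p = 0.684). Tfap2b stood at 92.0 ± 4.59 and 79.2 ± 4.44 CPM (adjusted p = 0.26), so neither targeted gene passed the test over whole tissue. Counts over a whole gene include exons outside a deletion and so do not check it. Markers of facial crest mesenchyme, the labelled tissue, were all detected, and their summed level was 1167 to 1195 CPM in controls and 911 to 958 in mutants. Y-linked genes were expressed in control 2 and in all 3 mutants but not in controls 1 and 3.

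Chemokines are small secreted proteins that direct cell movement through G protein-coupled receptors, and the CXC class is named for a pair of cysteines separated by another residue. CXCL12 acts through CXCR4 to guide migrating cells, among them germ cells and neural crest derivatives, while ACKR3 binds and internalises CXCL12 and so shapes its distribution. CXCL13 is best known as the ligand of CXCR5 that draws B cells into follicles and takes part in forming lymph nodes. CXCL14 is made mainly by epithelia, and CXCL16 is a membrane-bound ligand of CXCR6 that can be shed.

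The promoter windows of Cxcl13 and Cxcl12 are shown because these are the ligand with the widest genotype difference and the most abundant ligand. Each run is the 250 bases before the RefSeq transcription start on GRCm38.p6, 5′ to 3′ on the gene's strand. Capitals mark matches, on either strand, to TATAAA (a core promoter box), GGGCGG (a site of Sp1), GCCNNNGGC (the AP-2 consensus) or AGGTCA (a nuclear receptor half-site).
Cxcl13, chr5:95956689-95956938, plus strand: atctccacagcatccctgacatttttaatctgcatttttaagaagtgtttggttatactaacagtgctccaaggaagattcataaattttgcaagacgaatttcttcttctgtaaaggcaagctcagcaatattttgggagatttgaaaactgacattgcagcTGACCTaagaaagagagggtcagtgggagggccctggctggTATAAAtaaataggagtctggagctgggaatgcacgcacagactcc
Cxcl12, chr6:117168285-117168534, plus strand: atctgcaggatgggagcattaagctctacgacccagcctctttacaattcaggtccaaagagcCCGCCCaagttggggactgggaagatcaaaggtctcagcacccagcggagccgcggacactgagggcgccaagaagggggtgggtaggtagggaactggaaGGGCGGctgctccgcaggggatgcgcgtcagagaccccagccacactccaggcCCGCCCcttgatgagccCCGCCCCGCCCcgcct

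The Cxcl13 window had a GC content of 42.0%, above that of 15.9% of all 32851 windows, whose median was 52.4%. It held TATAAA with its first base 46 bases before the start, a match present in 12.4% of all windows. It also held AGGTCA on the reverse strand, 87 bases before the start, as did 14.0% of all windows on either strand. The Cxcl12 window was richer in GC, at 64.4%, above that of 81.6% of windows. It held 5 matches to GGGCGG, of which the last pair overlap, and no TATAAA. Of all windows, 32.7% held GGGCGG. GCCNNNGGC had 0 matches in the windows of Cxcl13, Cxcl12, Cxcl14, Cxcr4 and Ackr3, the 5 of 7 genes matched by symbol, and was present in 13.7% of all windows. A match is a run of letters in this window and says nothing of binding.

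Cxcl13 was detected in every library and was far lower in the mutants. The gene (ENSMUSG00000023078.6) lies at chr5:95956951-95961068 on the plus strand of GRCm38 (mm10), with 1150 exonic bases. Its counts were 552, 411 and 445 in controls 1 to 3 and 15, 9 and 24 in mutants 1 to 3. On the CPM scale these were 7.37, 5.66 and 5.89 against 0.215, 0.133 and 0.307. The groups were far apart, with the lowest control 18.4 times the highest mutant.

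The mean Cxcl13 level was 6.31 ± 0.932 CPM in controls and 0.219 ± 0.087 CPM in mutants, so that the mutants kept 3.47% of the control mean. The fitted log2 fold change was -4.82 (SE 0.26), a 28.3-fold lower level, and was the 6th lowest of the 19612 genes tested. Genes were called where the adjusted p was under 0.05 and the absolute log2 fold change over 0.32. This held for 64 genes, 0.326% of those tested. Because this contrast chose Cxcl13, nothing is read from its place among them.

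The mutants still had low counts of Cxcl13. Exact 95% Poisson intervals on the mutant counts ran from 8.40 to 24.7, from 4.12 to 17.1 and from 15.4 to 35.7, all above the 3 counts that a library at 0 would allow. These intervals cover counting error only and take the counts at face value. The counts are estimates derived from coverage, so their scale is uncertain, and the comparison with 3 counts depends on it. The highest mutant was 2.31 times the lowest, against 1.30 times among the controls, and the coefficient of variation was 39.8% in mutants and 14.8% in controls. Of the genes tested, 6.89% had a lower mutant mean, while 41.9% had a control mean below that of Cxcl13. The filter on low counts had removed genes first, and the control counts of Cxcl13 were enough to pass it. These shares are therefore not ranks in the tissue.

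The Cxcl13 values were also set beside the Y-linked genes, as a description. Control 2, which expressed them as the mutants did, had 5.66 CPM, next to 7.37 and 5.89 in the controls that did not. Among the Y-expressing libraries alone, with control 2 as the only control, the log2 fold change was -4.68 (SE 0.35), an SE that assumes that control 2 varies as the mutants do. When each of all 6 libraries was left out in turn, whatever its Y-linked expression, the value ranged from -5.16 without mutant 3 to -4.58 without mutant 2.

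**Figure D1:**
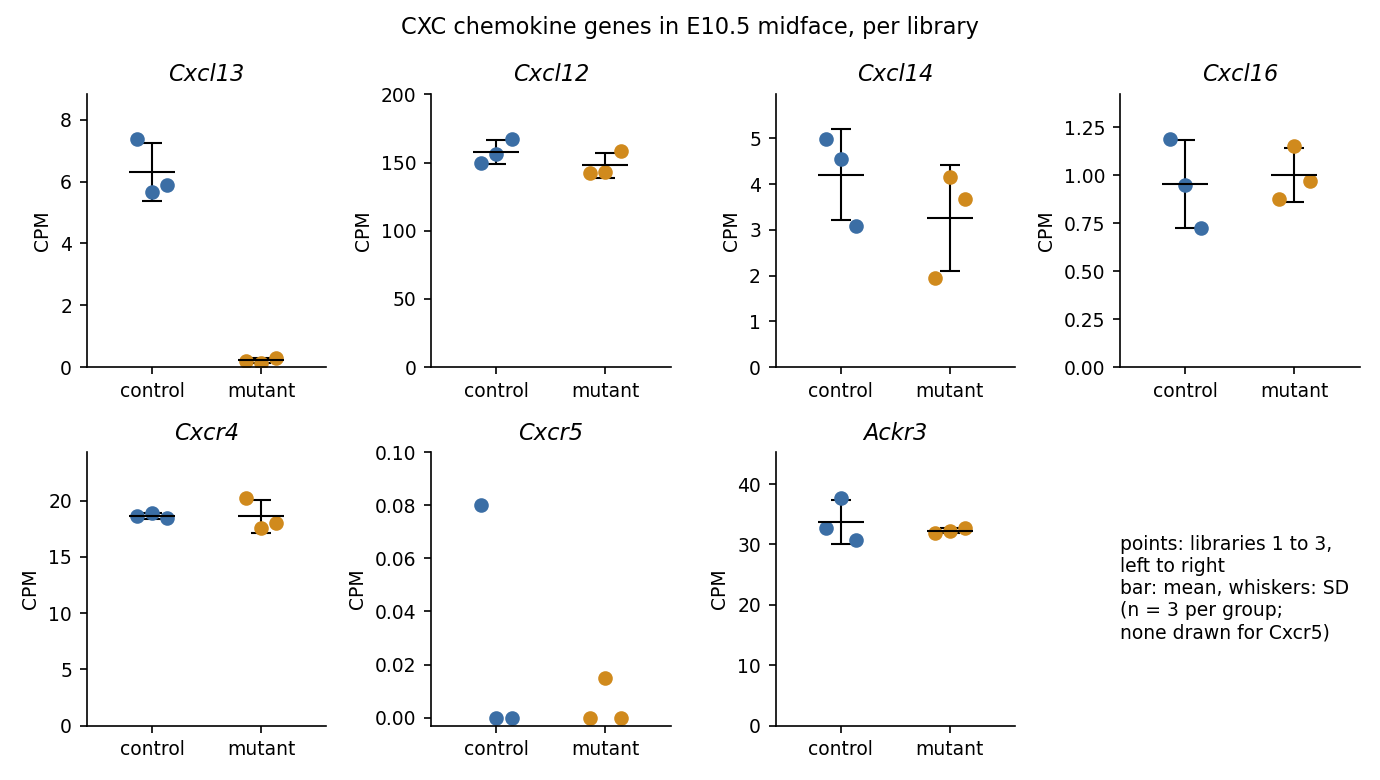
Level of each of the 7 genes (vertical axis, CPM, a linear scale of its own in each panel) in the 3 control and 3 mutant libraries, with group means and SD except for Cxcr5. The Cxcl13 panel separates the genotypes (5.66 to 7.37 against 0.133 to 0.307 CPM), while the points of the other genes overlap between groups.

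Cxcl12 was the most abundant of the ligands and did not pass the test. This gene (ENSMUSG00000061353.11, chr6:117168535-117181367, plus strand) had 149.5, 156 and 167 CPM in controls and 142, 143 and 159 CPM in mutants. The groups overlapped, since mutant 3 lay above controls 1 and 2. The means were 158 ± 8.97 and 148 ± 9.13 CPM, and the log2 fold change was -0.09 (SE 0.06, 95% interval -0.21 to 0.03, edgeR adjusted p = 0.849).

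Cxcl14 varied between libraries within each genotype and did not pass the test. The gene (ENSMUSG00000021508.11, chr13:56288643-56296551, minus strand) had 4.98, 4.56 and 3.08 CPM in controls and 1.95, 4.15 and 3.67 CPM in mutants. Mutant 1 was the lowest library, and the other mutants lay within the control range. The means were 4.21 ± 0.997 and 3.26 ± 1.15 CPM. The log2 fold change was -0.37 (SE 0.29, 95% interval -0.94 to 0.21, adjusted p = 0.883), and it was -0.11 (SE 0.21) without mutant 1. The same library had the highest summed level of surface ectoderm and epithelium markers, 434 CPM against 363 to 407 in the other mutants and 341 to 362 in controls. The part of that difference in the Cxcl14 level was not tested.

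Cxcl16 was the lowest ligand in controls. The gene (ENSMUSG00000018920.11, chr11:70453983-70459984, minus strand) had 1.19, 0.950 and 0.728 CPM in controls and 0.876, 1.15 and 0.973 CPM in mutants, and the groups overlapped throughout. The means were 0.956 ± 0.231 and 1.00 ± 0.142 CPM, and the log2 fold change was 0.07 (SE 0.24, 95% interval -0.40 to 0.53, adjusted p = 0.982). These values are uncertain, because 552 of its 3021 exonic bases are shared with Zmynd15 on the opposite strand and no strand setting is stated for the counting.

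Levels of different ligands can be set side by side only per length, here as CPM per kb of annotated exon. On that scale the controls had 19.3 ± 1.10 for Cxcl12, 5.48 ± 0.81 for Cxcl13, 2.30 ± 0.546 for Cxcl14 and 0.316 ± 0.076 for Cxcl16. These neighbours in the order did not overlap between libraries. In mutants Cxcl12 (18.1 ± 1.12) was still first, followed by Cxcl14 (1.78 ± 0.632), Cxcl16 (0.331 ± 0.047) and Cxcl13 (0.190 ± 0.076). Cxcl13 had thus moved from the place after Cxcl12 to the last place of the 4 by group mean. In each mutant library it lay below Cxcl16, though in mutants 1 and 3, with 15 and 24 counts of Cxcl13, the order is within counting error. All annotated exons were counted in the length, whichever transcripts are used in this tissue, so the order depends on that annotation.

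The summed level of the 4 ligands was 27.4 ± 0.492 CPM per kb in controls and 20.4 ± 1.53 in mutants. Cxcl13 made up 20.0 ± 2.65% of this sum in controls and 0.925 ± 0.327% in mutants. Cxcl12 made up 70.4 ± 4.38% and 88.8 ± 2.79%, a larger share in mutants at a level that did not pass the test. The shares of Cxcl14 were 8.41% and 8.66%, and those of Cxcl16 were 1.15% and 1.63%. The change in the shares is thus a restatement of the Cxcl13 values and is given without a test.

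**Figure D2:**
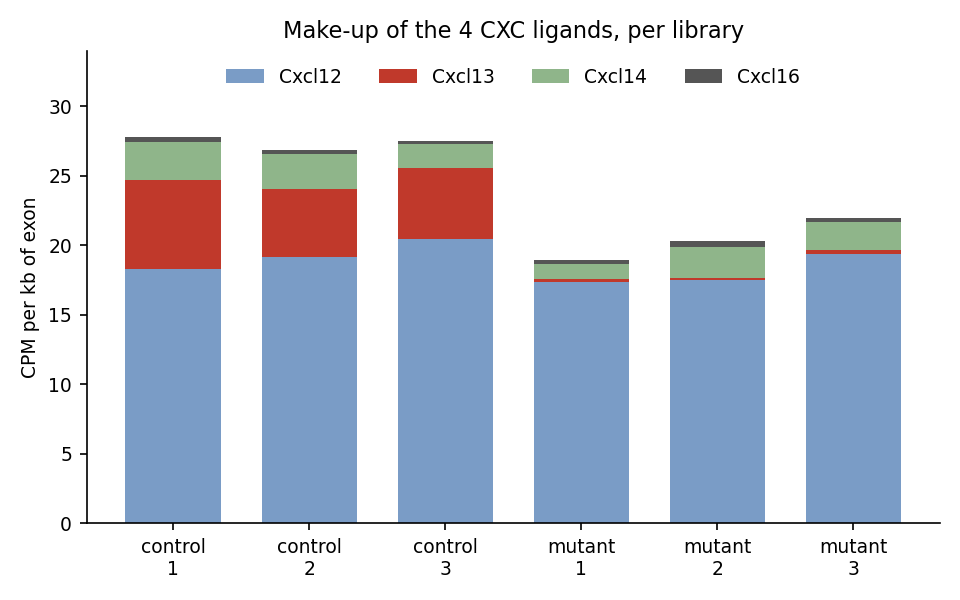
Stacked level of the 4 CXC ligands (vertical axis, CPM per kb of exon, from 0) in each of the 6 libraries. The Cxcl13 segment is visible in the controls, where it averages 20.0% of the stack, and nearly vanishes in the mutants at 0.925%, while the Cxcl12 segment is of similar height in all libraries.

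The receptors of CXCL12, Cxcr4 and Ackr3, did not pass the test. Cxcr4 (ENSMUSG00000045382.6, chr1:128588199-128592293, minus strand) had 18.6, 18.9 and 18.4 CPM in controls and 20.3, 17.5 and 18.0 CPM in mutants. The mutants lay on both sides of the controls, and both means were 18.6 CPM, with an SD of 0.243 in controls and 1.46 in mutants. The log2 fold change was -0.0026 (SE 0.07, 95% interval -0.15 to 0.14, adjusted p = 0.998).

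Ackr3 (ENSMUSG00000044337.5, chr1:90203980-90216751, plus strand) had 32.8, 37.8 and 30.7 CPM in controls and 31.9, 32.2 and 32.7 CPM in mutants. All 3 mutants fell between controls 3 and 1. The means were 33.7 ± 3.64 and 32.3 ± 0.398 CPM, and the log2 fold change was -0.06 (SE 0.08, 95% interval -0.22 to 0.09, adjusted p = 0.934). With a Y-linked covariate it was -0.23 (SE 0.08, adjusted p = 0.586), and among the Y-expressing libraries, where control 2 with the highest level was the only control, it was -0.24 (SE 0.08, adjusted p = 0.664).

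Per kb of exon, Cxcr4 and Ackr3 did not differ beyond their spread, at 10.3 ± 0.134 and 10.1 ± 1.09 in controls and 10.3 ± 0.806 and 9.64 ± 0.119 in mutants. The ratio of Ackr3 to Cxcr4 on this scale was 0.976 ± 0.092 in controls and 0.941 ± 0.078 in mutants. The ratio of Cxcl12 to Cxcr4 was 1.87 ± 0.122 and 1.77 ± 0.199, and that of Cxcl12 to Ackr3 was 1.93 ± 0.274 and 1.88 ± 0.093. Each of these ratios overlapped between the genotypes.

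Cxcr5, the receptor of CXCL13, was close to absent from the counts. The gene (ENSMUSG00000047880.15, chr9:44511787-44561877, minus strand) had 6, 0 and 0 counts in controls and 0, 1 and 0 in mutants, and only control 1 exceeded the 3 counts that a library at 0 would allow. It was not tested and no fold is given. Its level is uncertain too, since 110 of its exonic bases are shared with Bcl9l on the opposite strand. The controls thus held 411 to 552 counts of the ligand Cxcl13 beside 0 to 6 counts of its receptor. Lymphoid markers, which include the B and T cell genes Ms4a1 and Cd3e at 0 in all 6 libraries, summed to 2.38 to 2.96 CPM in controls and 2.92 to 4.24 CPM in mutants. Of these 9 markers 5 had counts enough to be tested, with 3 higher and 2 lower values in mutants.

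Among the members other than Cxcl13, 0 of the 5 tested were called by edgeR, against 0.326% of all 19612 genes tested. Of these 5, 0 had an unadjusted p below 0.05. With DESeq2 the number called was also 0, against 257 of 16810 genes. At such shares a list of 5 genes would rarely hold a call, so nothing is read from these counts.

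The genes annotated around Cxcl13 on chromosome 5 did not share its difference. Of the 3 nearest on each side, 3 were tested. Gm7993, a processed pseudogene 13172 bases after Cxcl13, had a value of 0.06 on the log2 scale (SE 0.08, adjusted p = 0.934). Gm5559, another processed pseudogene 94236 bases before it, had -0.10 (SE 0.08, adjusted p = 0.870), and reads of such pseudogenes may stem from their parent genes. Cnot6l, a subunit of the CCR4-NOT deadenylase, lies 109265 bases after Cxcl13 and had -0.14 (SE 0.07, adjusted p = 0.756). Gm42714 and Gm25937 had 0 counts in all libraries, and Gm2840 had 2 counts in control 1 only.

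Further protein-coding neighbours were added after their values were seen. Mrpl1, a mitochondrial ribosomal protein gene, had 0.06 (SE 0.08, adjusted p = 0.939). Fras1, an extracellular matrix protein gene of the epithelial basement membrane, had 0.25 (SE 0.10, adjusted p = 0.605). E330014E10Rik, the nearest such gene before Cxcl13, had 0 counts throughout. None of the 5 tested neighbours passed the test, and the groups of each overlapped.

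**Figure D3:**
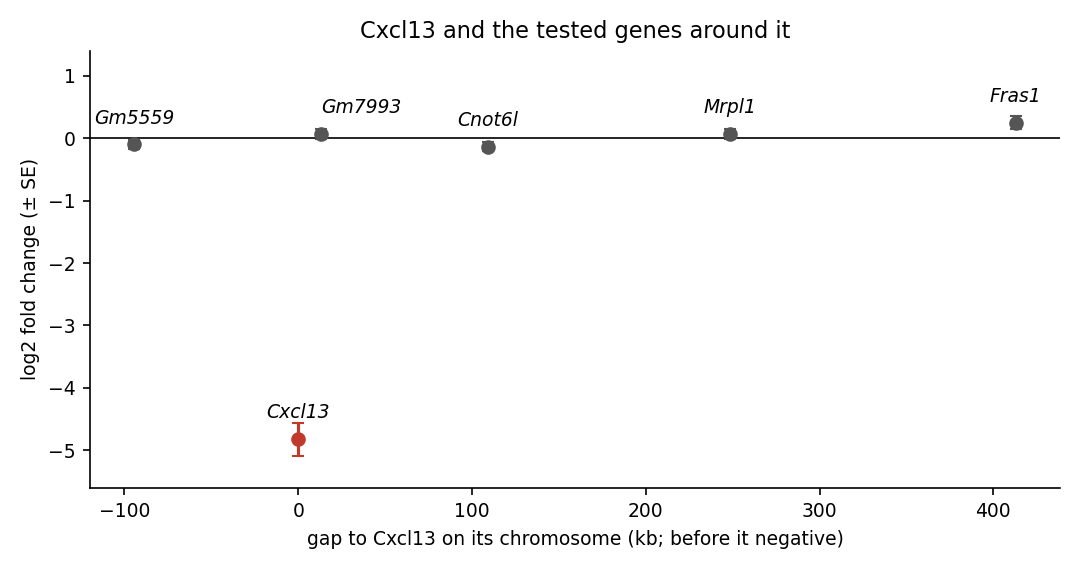
Log2 fold change between mutants and controls (vertical axis, ± SE) of Cxcl13 and the 5 tested genes around it, against their gap to Cxcl13 (horizontal axis, kb). Cxcl13 lies at -4.82 and its neighbours lie between -0.14 and 0.25.

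The genes whose pattern over the 6 libraries was most like that of Cxcl13 were named by Pearson's r of log2 CPM, among 15000 genes with a mean of at least 1 CPM. They were Sass6 (r = 0.997), which acts in centriole assembly, Htr3b (0.996), a serotonin receptor subunit, Rdh10 (0.996), which oxidises retinol, Rpia (0.992), an enzyme of the pentose phosphate pathway, and Ppp2r2c (0.991), a regulatory subunit of protein phosphatase 2A. All 6 points come in 2 groups, so r mostly reflects the gap between genotypes and is a description only. The sizes of the differences were unlike. Htr3b had a log2 fold change of -1.78 (SE 0.14) and Ppp2r2c one of -2.06 (SE 0.18). Sass6, Rdh10 and Rpia had values of -0.22, -0.26 and -0.19. Likeness to Cxcl13 in these same libraries picked the genes, so no test is read for them.

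The wider chemokine system was read from 5 lists of ligands, receptors and signalling genes, 77 genes in all, of which 43 were tested. Outside Cxcl13, which this contrast chose, no gene was called, against 0.326% of all genes tested. The lowest edgeR adjusted p among these others was 0.0813. Among the 15 CXC ligands, 7 were tested, and the median log2 fold change was -0.0013, against 0.00083 over all genes. Cxcl9, Cxcl11 and Cxcl15 had 0 counts in all libraries. Pf4, a ligand stored in platelets, had 2.68 ± 0.540 CPM in controls and 3.14 ± 0.783 in mutants (log2 fold change 0.23, SE 0.22, adjusted p = 0.909).

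Of the 10 CXC and atypical receptors, 6 were tested, 0 were called and the median log2 fold change was -0.03. Cxcr2, a receptor of neutrophils, was the member whose groups did not overlap, with 0.240, 0.138 and 0.172 CPM in controls and 0.344, 0.326 and 0.435 CPM in mutants. It did not pass the test (log2 fold change 1.00, SE 0.36, adjusted p = 0.477). In all genes tested, 13.4% had groups that did not overlap.

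Of the 22 other chemokine ligands, 8 were tested and 0 were called, with a median log2 fold change of 0.39. The most abundant were Ccl25, at 5.05 to 7.45 CPM in controls and 5.12 to 5.93 in mutants, Ccl27a, at 4.84 ± 0.252 and 4.54 ± 0.307, and Cx3cl1, at 4.60 ± 0.106 and 4.93 ± 0.291. Of the 13 other chemokine receptors, 5 were tested and 0 were called, with a median of 0.47. The highest of these was Cx3cr1, a receptor of macrophages and microglia, at 5.87 ± 0.622 CPM in controls and 9.99 ± 1.76 in mutants (log2 fold change 0.77, SE 0.14, adjusted p = 0.0813). The groups did not overlap, but the adjusted p missed the limit. With DESeq2, Cx3cr1 and Rac2, a GTPase of blood cells, were called as well.

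All 17 genes of chemokine receptor signalling were tested and 0 were called, with a median log2 fold change of 0.02. This list holds the abundant Gnai2, a G protein subunit, at 465 ± 9.99 CPM in controls and 512 ± 28.3 in mutants (adjusted p = 0.525). Rac2 stood at 3.12 ± 0.234 and 4.91 ± 0.331 CPM (log2 fold change 0.65, SE 0.12, adjusted p = 0.0813).

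Over the 43 genes tested, 15 had groups that did not overlap (34.9%, against 13.4% of all genes). Cxcl13, which this contrast chose, was the gene lower in mutants, and the other 14 were higher. Macrophage markers moved with them: the summed level of the 10 listed was 29.4 to 39.1 CPM in controls and 51.3 to 73.5 CPM in mutants, all 10 had higher values, 8 did not overlap, and C1qb, a complement component, was called (log2 fold change 1.02, SE 0.15, adjusted p = 0.0423). Cx3cr1 stands in both the macrophage list and the chemokine lists, so for this gene the comparison is with itself. The part of macrophage number in the 14 higher values was not tested. The macrophage markers and Cxcl13 differed in opposite directions.

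**Figure D4:**
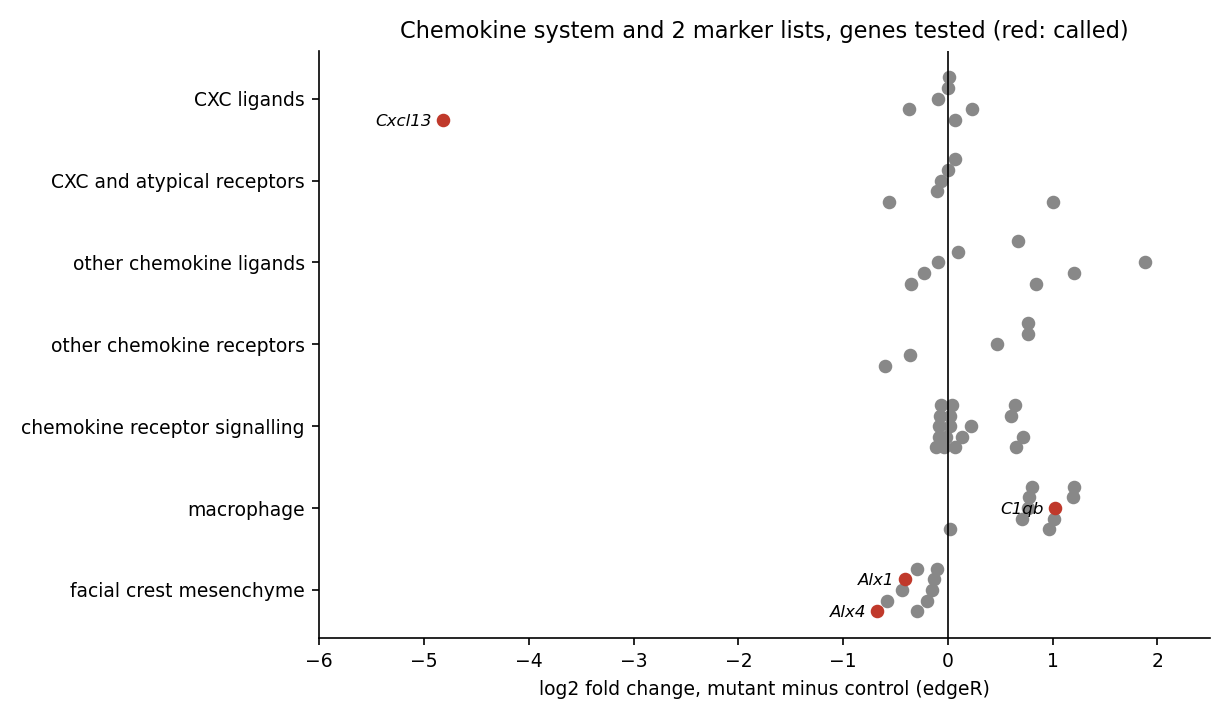
Log2 fold change between mutants and controls (horizontal axis) of each tested gene in the 5 chemokine lists and in the lists of macrophage and facial crest mesenchyme markers (rows), with called genes in red and named. Cxcl13 lies alone at -4.82, the macrophage markers lie to the right of 0 and the mesenchyme markers to the left.

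Proteins that meet CXCL12 and CXCL14 outside the receptor list were also measured. All 10 were tested and 0 were called, with a median log2 fold change of 0.02. Hmgb1, which can form a complex with CXCL12, had 729 ± 56.0 CPM in controls and 742 ± 43.7 in mutants. Mif, another ligand of CXCR4, had 461 ± 29.7 and 415 ± 40.8 CPM (adjusted p = 0.737). Cd164, a sialomucin that associates with CXCR4, had 129 ± 0.930 and 126 ± 4.85 CPM. Of all genes tested 0.326% were called, so no call among 10 genes is near that share and nothing is read from it.

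Lymphotoxin signalling through noncanonical NF-kB drives Cxcl13 in lymphoid stroma. Of 13 genes of this pathway 10 were tested and 0 were called, against 0.326% of all genes tested. Their median log2 fold change was 0.04. Ltbr, the lymphotoxin receptor, was at 25.3 ± 0.871 CPM in controls and 31.6 ± 0.794 in mutants (log2 fold change 0.32, SE 0.06, adjusted p = 0.0778). Whether this pathway had a part in the Cxcl13 level was not tested. Lymphoid tissue organizer markers summed to 67.8 to 75.1 CPM in controls and 76.7 to 85.2 in mutants, with Ccl19 at 0 throughout.

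Retinoic acid induces Cxcl13 in the mesenchyme of mouse lymph node anlagen, and with edgeR its list held called genes. All 15 genes were tested, 2 were called lower and 0 higher, against 0.326% of all genes tested, with a median log2 fold change of -0.23. By value, 11 were lower and 4 higher. The 4 were Aldh1a3 (log2 fold change 0.30, SE 0.17, adjusted p = 0.808), Aldh1a2 (0.28), Cyp26a1 (0.27) and Cyp26c1 (0.26), and they were not called. Crabp1, a cytoplasmic retinoic acid binding protein, had 803, 788 and 745 CPM in controls and 389.9, 387 and 345 CPM in mutants (log2 fold change -1.06, SE 0.06, adjusted p = 0.00031). Stra6, a receptor that takes up retinol, had 62.8, 61.5 and 66.5 CPM in controls and 39.1, 39.6 and 36.3 CPM in mutants (log2 fold change -0.73, SE 0.06, adjusted p = 0.00123). Both genes were separated between groups, by far less than Cxcl13 on the log2 scale. Whether these differences had a part in the Cxcl13 level was not tested.

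The other cell types that the tissue could hold were read beside Cxcl13. Of the 10 crest mesenchyme markers all 10 had lower values in mutants and 2, the transcription factors Alx1 (log2 fold change -0.41, SE 0.05, adjusted p = 0.0108) and Alx4 (-0.67, SE 0.07, adjusted p = 0.00517), were called. Their median log2 fold change was -0.29. Whether the number of such cells had a part in the Cxcl13 level was not tested. Endothelial markers summed to 315 to 323 CPM in controls and 344 to 363 in mutants, muscle and cranial mesoderm markers to 29.9 to 39.9 and 43.7 to 49.0, and crest glia markers to 106 to 133 and 74.3 to 102. None of these 3 lists held a called gene, against 0.326% called over all genes tested. The cell type that expressed Cxcl13 was not measured.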

How the data were processed

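Per the labels and the study's methods, the authors mapped 150-base single-end reads of stranded mRNA libraries to mm10 with STAR, quantified genes with StringTie and exported its gene values to DESeq2. The expected counts that the authors deposited are estimated counts which StringTie derives from coverage, so low counts can be scaled. They were already whole. For tool versions, annotation release and strand option, the sources used here give nothing. The deposited tables also hold the authors' own comparisons (DESeq2 and sleuth fold changes and p-values), which were not used.

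Counts were tested in R 4.3.3 with edgeR 4.0.16 (filterByExpr, TMM, robust quasi-likelihood F test, no covariate) over 19612 genes, with Benjamini-Hochberg adjustment over all of them. The script was tested on simulated data. Calls needed an adjusted p under 0.05 and an absolute log2 fold change over 0.32, the fold limit of the study. The SE is the absolute log2 fold change divided by the square root of F. Intervals cover 95%. Exon lengths, coordinates and neighbours came from the GENCODE M21 annotation of GRCm38, in which 98.1% of the table's gene IDs matched by version. Promoter sequences came from RefSeq. Counts lack molecular identifiers, so counting intervals do not cover amplification.

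The genes named were the 7 members, Tfap2a and Tfap2b, called list members, up to 3 list members with the highest mean CPM, 3 neighbours on each side of Cxcl13 and the 5 genes most like it. Cxcr2, Cx3cr1, Rac2, Ltbr, Aldh1a2, Cyp26a1 and Cyp26c1 and the lists' genes at 0 were added after their values were seen. The members and lists were chosen with earlier results of these data known. Alternatives were DESeq2 1.42.0, other scalings and count filters, counts divided by 2, a replicate block, a Y-linked covariate, the Y-expressing libraries alone and leaving out each library.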

Additional observations from a re-analysis of the deposited data

How the results depend on the processing

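Over 15 alternatives the log2 fold change of Cxcl13 stayed between -5.16 and -4.58, both ends set by leaving out 1 mutant library. Cxcl12, Cxcl14, Cxcr4 and Ackr3 were called in 0 of 15 alternatives and Cxcl16 in 0 of 14, since the stricter count filter removed it. Adjusted p ranged from 0.402 to 1.00 for Cxcl12, 0.732 to 1.00 for Cxcl14, 0.932 to 1.00 for Cxcl16, 0.969 to 1.00 for Cxcr4 and 0.586 to 1.00 for Ackr3. With 1 library left out, the log2 fold change ran from -0.14 to 0.02 for Ackr3, from -0.10 to 0.25 for Cxcl16 and from -0.069 to 0.039 for Cxcr4. Cxcl12, Cxcl13 and Cxcl14 kept their sign, but Cxcl12 (-0.09) was -0.055 without control 3 and -0.14 without mutant 3, and Cxcl14 (-0.37) was -0.11 without mutant 1, -0.24 without control 1, -0.56 without control 3 and -0.58 without mutant 2. Ackr3 (-0.06) was -0.23 with the Y-linked covariate and -0.24 in the Y-expressing libraries alone. The sign turned for Ackr3 without control 2 (0.024), for Cxcl16 without control 3 (-0.10) or mutant 2 (-0.05), and for Cxcr4 without control 2 (0.0068), mutant 2 (0.039) or mutant 3 (0.018). All are smaller than their SE.

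The number of genes called moved more than the members did. Against 64, it was 257 with DESeq2 (147 lower, 110 higher), 119 with the replicate block, 38 with the Y-linked covariate and 33 in the Y-expressing libraries alone. Leaving out 1 library gave 23 to 63: 41 without control 1, 63 without control 2, 25 without control 3, 48 without mutant 1, 23 without mutant 2 and 26 without mutant 3. Such fits have fewer samples. In the chemokine system 1 gene was called, Cxcl13, which this contrast chose. The number was 3 with DESeq2 and 2 with the replicate block, which added Cx3cr1. Without each library in turn it was 1. The replicate numbers were not taken as pairs, because no label states a pairing. The correlations of same-numbered libraries' deviations were low, at 0.032, 0.108 and 0.131, but every library correlated best with its own number. The library letters also alternate between control and mutant of the same number. Both are hints of pairs, for which the replicate block is the alternative. Cxcr5 had too few counts for any value here, and 3 counts correspond to 0.0384 to 0.0444 CPM.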
